A study of Mus musculus with 3 samples.

Results

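The gene described here is Rn45s, which encodes the 45S precursor of ribosomal RNA (rRNA). Its assembled copy was taken as the interval chr17:39979801-39985800 of the mouse genome (build mm9), with 10 kb on each side. The interval was chosen by its position and with the mTOR and ERRα coverage of these libraries in view, so those values are given as a description. It is 1 region of 30 bins of 200 bp, among 13209292 such bins on chromosomes 1 to 19, X and Y. Chromatin of livers from C57Bl/6 males, 2 to 3 months old, was immunoprecipitated and the recovered DNA sequenced (ChIP-seq). The groups, of 1 library each, differ in the labels by antibody alone: one against mTOR from Abcam, one against ERRα from Epitomics, and rabbit immunoglobulin G (IgG) from Santa Cruz as the control. The mTOR and ERRα libraries were each pooled from 8 immunoprecipitations out of chromatin of 26 livers, and how many stand behind the IgG library is not stated in the sources used. The labels name no treatment for any of the 3 libraries.

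The ribosomes of a cell need large amounts of rRNA, which RNA polymerase I makes in the nucleolus from the rRNA genes. The long precursor transcript is cut into the 18S, 5.8S and 28S rRNAs, and spacers between them are removed. The rRNA genes lie in long tandem arrays of near-identical copies, of which only some are transcribed. mTOR is a protein kinase that couples nutrients to growth, and its signalling is known to raise transcription by RNA polymerase I through the initiation factor TIF-IA. ERRα is an orphan nuclear receptor known for the control of genes of mitochondrial energy metabolism in tissues such as liver. A genome assembly holds few copies of the rRNA arrays. Coverage of the assembled copy therefore stands for tags from many copies together, and it cannot be assigned to any of them. The deposited tracks were used on build mm9 without an annotation of that build. The promoter, the spacers and the 18S part were therefore not placed within the interval. How much of the precursor gene the interval holds was not determined. Below, "copy" and its "ends" refer to this interval alone, and "left" and "right" mean lower and higher coordinates. On assembly GRCm38.p6 the RefSeq table has no entry for Rn45s. It lists Rn18s-rs5, of 1849 bp, on chromosome 17 next to AY036118, and this entry was not carried over to mm9.

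All values are coverage as the authors scaled it to 10000000 tags, from totals of 62500000 tags for mTOR, 74200000 for ERRα and 68800000 in the IgG control. Each group is 1 library, so no value has a replicate check and every difference is one between libraries. The range in parentheses after a ratio is its exact 95% interval (Clopper-Pearson), computed from approximate tag numbers. These intervals cover counting error only and treat tags as independent. How duplicate tags, and tags that match several places, were handled is not stated in the sources used. Counting error is small here: the interval held about 42629 tags for mTOR, 14341 for ERRα and 14672 in IgG.

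The mTOR library stood far above the other libraries over the whole Rn45s interval, while the ERRα library lay slightly below IgG. Mean coverage of the interval was 169.8 for mTOR, 48.1 for ERRα and 53.3 in the IgG control. The mTOR coverage was thus 3.19 times that of IgG (3.13 to 3.25) and 3.53 times that of ERRα (3.46 to 3.60). ERRα coverage was 0.903 times that of IgG (0.882 to 0.924). The order of the levels was mTOR, IgG, ERRα. Every scaling tried raised mTOR/IgG, so the step from mTOR to IgG could not change direction under them. The step from IgG to ERRα did change: with the libraries scaled to other bright bins the ERRα ratio became 1.01.

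Rn45s was bright in every library, IgG included. Taken against the mean of all autosomal bins, gaps counted as 0, the interval stood at 290.0 times for mTOR, 82.0 times for ERRα and 90.6 times in IgG. It took up 0.0682% of all mTOR coverage, against 0.0193% of ERRα and 0.0213% of IgG coverage. Over the 30 bins, mTOR coverage ran from 45.7 through a median of 175.4 to 299. IgG coverage ran from 15.2 through 50.7 to 88.7, and ERRα coverage from 15.2 through 44.4 to 84.7. The ranges of ERRα and IgG overlapped almost completely, and the mTOR range overlapped both only at its low end. In each single bin, mTOR was the highest of the 3 libraries.

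**Figure D1:**
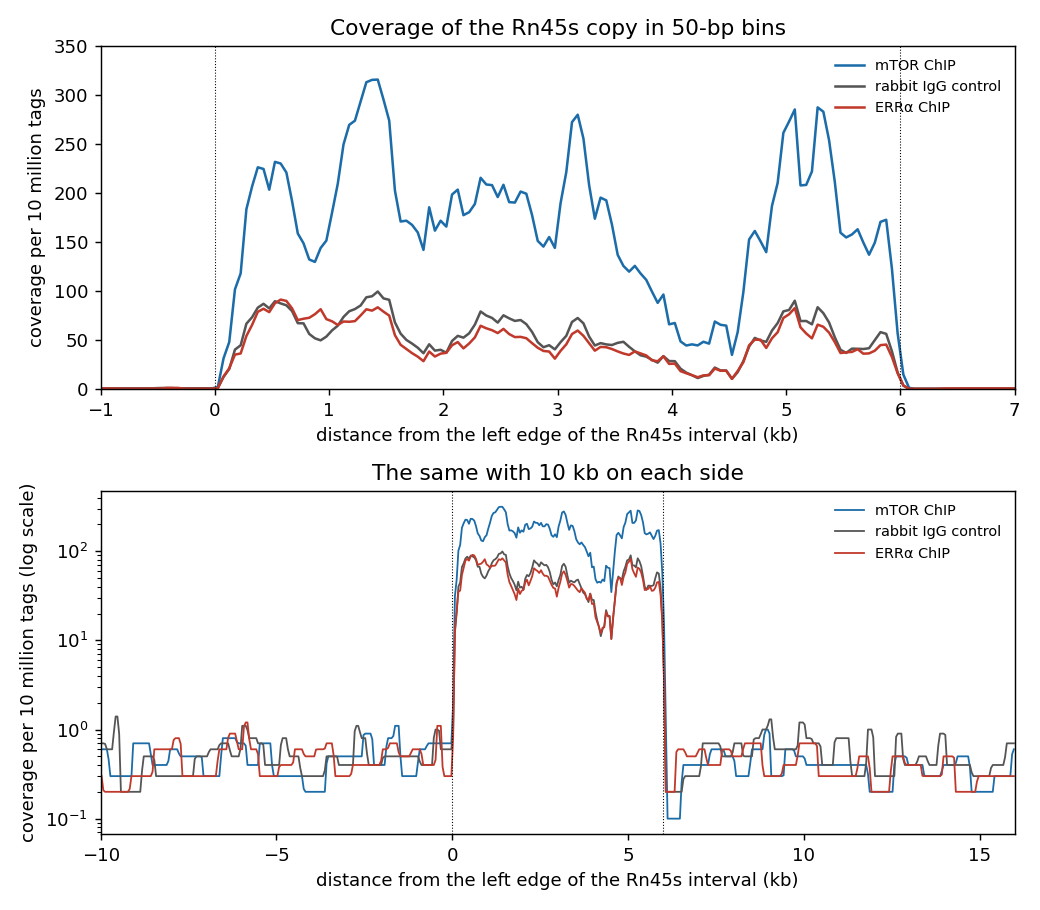
Coverage scaled to 10000000 tags in 50-bp bins, as lines for the mTOR ChIP, the ERRα ChIP and the IgG control, against the distance in kb from the left edge of the Rn45s interval; the upper panel has a linear axis, the lower panel a log axis with 10 kb on each side, and dotted lines mark the interval. The mTOR line lies above both others along the whole copy, all 3 libraries share a low stretch near 4 to 4.6 kb, and all fall to the level of the flanks at both edges.

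The edges of the bright interval were sharp and lay at nearly the same place in each library. Coverage of at least 50% of the interval's median ran from position 39979960 to 39985752 in the mTOR ChIP, from 39979942 to 39985755 in the ERRα ChIP and from 39979947 to 39985753 in IgG. These spans were 5793, 5814 and 5807 bp long. From a level of 2 times the highest flank value, coverage needed 119, 94 and 93 bp to rise to this level on the left. On the right it needed 123, 70 and 66 bp to fall. These distances are shorter than a tag, which covered about 149 to 150 bp in each track.

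The mTOR excess ended at the edges of the assembled copy, where the brightness of every library ended too. The bin just outside the left edge, chr17:39979601-39979800, held 0.7 for mTOR, 0.3 for ERRα and 0.6 in IgG, against 45.7, 17.5 and 18.5 in the first bin inside. On the right, the last bin inside held 130.7, 34.7 and 42.4. The bin just outside it held 4.03, 1.08 and 1.00, most of it in the first 50 bp, and the next bin held 0.1, 0.29 and 0.2. In the left flank, up to 200 bp from the interval, mean coverage was 0.498, 0.472 and 0.510 in the same order, and mTOR stood at 0.977 times IgG (0.805 to 1.19). In the right flank the means were 0.391, 0.405 and 0.546, and both ChIPs lay below IgG, at 0.716 times (0.581 to 0.874) for mTOR and 0.742 times (0.610 to 0.896) for ERRα. Within the interval and its flanks, mTOR thus exceeded IgG on the copy and not beside it. The flanks are not bright sequence, as their IgG means lay below the IgG autosomal mean of 0.588. They therefore cannot show whether the excess goes on in rRNA gene sequence outside the assembled copy.

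The mTOR excess covered the interval from end to end and was not a single peak. The ratio mTOR/IgG was at least 2 in 30 of 30 bins and at least 3 in 20 of them. Among the other 1401 bins with IgG above 10, outside the interval and its flanks, 0.785% reached a ratio of 2 and 0.214% a ratio of 3; as the ratio was part of the choice of the interval, nothing is read from this contrast. Over the bins of Rn45s the ratio ran from 2.41 to 4.10, with a median of 3.22 and a standard deviation of 0.468 between bins, or 14.6% of the mean. The counting interval of mTOR/IgG lay above 1 in all 30 bins. Part of the variation was larger than counting error: the intervals of 6 bins lay wholly above the ratio of 3.19 for the whole copy and those of 8 bins wholly below it. Neighbouring bins share tags and are not independent.

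**Figure D2:**
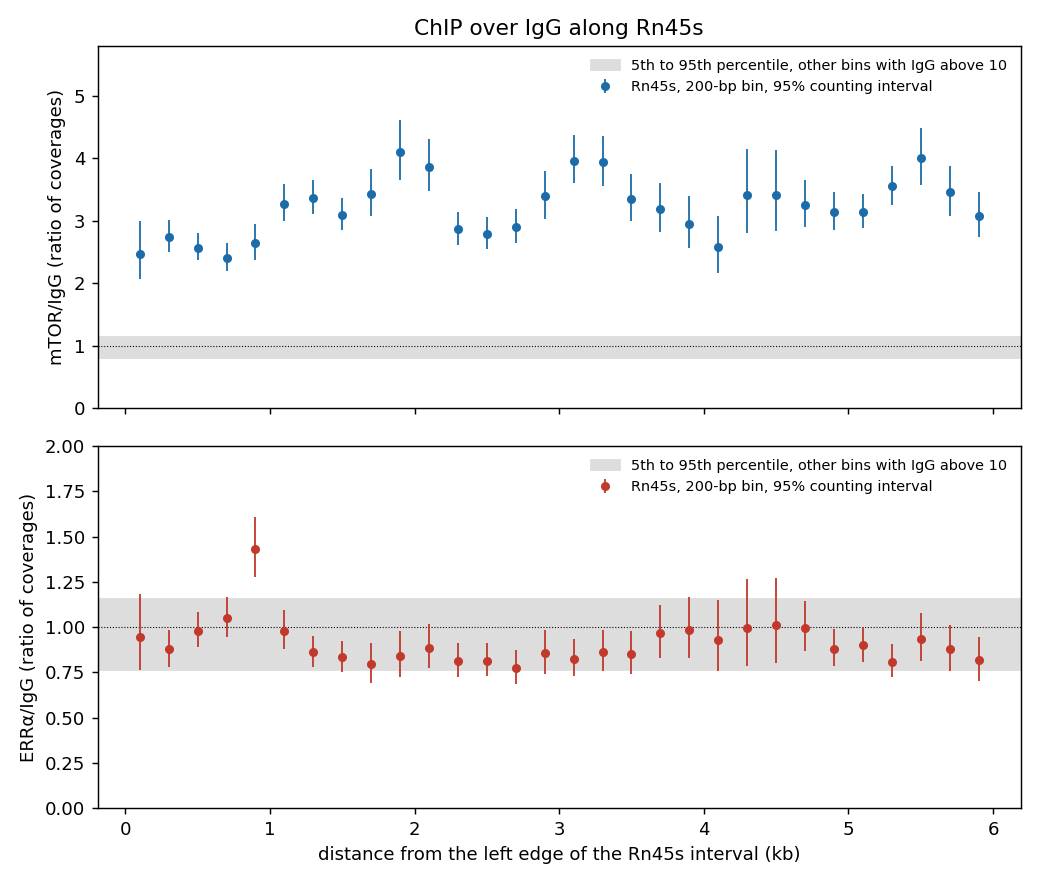
Ratio of coverage of the mTOR ChIP (upper panel) and the ERRα ChIP (lower panel) to IgG in the 30 bins of 200 bp of Rn45s, against the distance in kb from its left edge; points are ratios, bars their 95% counting intervals, and the grey band spans the 5th to 95th percentile of the other bins with IgG above 10. All mTOR points lie between 2.41 and 4.10, far above their grey band of 0.797 to 1.14, while ERRα points lie within theirs of 0.764 to 1.15 except for 1 point at 1.43.

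Along the copy, mTOR/IgG was lowest near the left edge. In the first kb the means were 154.2 for mTOR, 62.9 for ERRα and 59.9 for IgG, so mTOR/IgG was 2.58 (2.46 to 2.69). In the second kb mTOR coverage was 226.1 and IgG coverage 67.0, and the ratio was 3.38 (3.24 to 3.52). In the third kb it was 3.10 (2.96 to 3.24), with 185.2 against 59.8. The fourth kb had the highest ratio of the 6, 3.57 (3.40 to 3.75), with 162.1 against 45.4. The fifth kb held the least coverage, 99.9 against 31.7, and its ratio of 3.15 (2.97 to 3.35) was close to that of the whole copy. In the sixth kb the values were 191.2 and 55.9, a ratio of 3.42 (3.27 to 3.58). The interval of the first kb lay below those of the 5 others. Split at its middle, the copy had a ratio of 3.03 (2.96 to 3.11) on the left and 3.41 (3.31 to 3.51) on the right.

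The ends of the copy showed the same order. At the left end, the outermost bin with IgG coverage of at least 50% of the median at every position was chr17:39980001-39980200, with 183.5 for mTOR, 58.6 for ERRα and 66.9 in IgG. There mTOR/IgG was 2.75 (2.50 to 3.02) and ERRα/IgG 0.877 (0.782 to 0.984). At the right end, chr17:39985401-39985600, the values were 149.6, 38.0 and 43.3, with ratios of 3.45 (3.08 to 3.87) for mTOR and 0.877 (0.760 to 1.01) for ERRα. The intervals of mTOR/IgG at both ends did not overlap, while those of ERRα/IgG did. The last bin, chr17:39985601-39985800, did not meet the IgG rule at every position. Its mTOR/IgG was 3.08 (2.74 to 3.46), an interval that overlaps that of the left end. In the outermost 50-bp bins, mTOR/IgG was 2.53 on the left and 3.19 on the right, and ERRα/IgG 0.873 and 0.849. Over 600 bp at each end, mTOR/IgG was 2.57 on the left and 3.64 on the right, and ERRα/IgG was 0.973 on the left and 0.861 on the right.

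The ratio mTOR/IgG was highest at 3 narrow places. The first was chr17:39981601-39981800, where mTOR coverage was 165.1, ERRα 33.9 and IgG 40.3, a ratio of 4.10 (3.65 to 4.61). The next was chr17:39985201-39985400, with 170.8, 39.9 and 42.7, at 3.999 (3.57 to 4.48). The third was chr17:39982801-39983000, with 240.7, 50.0 and 60.7, at 3.97 (3.61 to 4.37). The bin to the right of the first stood at 3.87 (3.48 to 4.31), and that to the right of the third at 3.93 (3.55 to 4.36). In 50-bp bins the maximum was 4.48 (3.52 to 5.75), at chr17:39981801-39981850, just outside the first of these bins. The lowest ratios were 2.41 (2.20 to 2.64) at chr17:39980401-39980600, 2.48 (2.06 to 2.99) in the first bin and 2.57 (2.37 to 2.80) at chr17:39980201-39980400. The 3 lowest thus lay in the first kb, and the 3 highest spread over the rest of the copy.

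The bins of highest mTOR/IgG were not those of highest coverage. Coverage peaked at chr17:39981001-39981200 in the mTOR ChIP (298.9) and in IgG (88.7), where the ratio was 3.37, and at chr17:39980201-39980400 in the ERRα ChIP (84.7). The shared low stretch chr17:39983801-39984400 held 53.0 for mTOR, 16.7 for ERRα and 17.2 in IgG. Its mTOR/IgG was 3.09 (2.78 to 3.44) all the same. Between the lowest bin and the highest bin, the first bin left out, coverage differed 5.81 times for mTOR, 5.58 times for ERRα and 5.82 times in IgG. Hills and valleys of coverage were thus largely common to the 3 libraries. Across the 30 bins Pearson's r of mTOR with IgG coverage was 0.928 and that of ERRα with IgG was 0.939; the bins share libraries and sequence, and these values are a description. The ratio mTOR/IgG showed little relation to the IgG level, with r = -0.134.

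ERRα followed IgG along nearly the whole copy. ERRα/IgG ran from 0.775 to 1.43 over the bins, with a median of 0.879. ERRα was above IgG in 3 of 30 bins, against 17.7% of the other bins with IgG above 10, and no bin of Rn45s reached 1.5, against 1.28% of those bins. The counting interval lay below 1 in 15 bins, included 1 in 14 and lay above 1 in 1 bin. With the libraries scaled to the other bright bins, 13 of 30 bins had ERRα above IgG, where that scaling puts 50% (700 of 1401) of the other bins above 1 by construction. With the median covered bin set equal it was 10 of 30, against 33.2% of the other bins, so the sign of this small difference depends on the scaling. By kb, ERRα/IgG was 1.05 (0.999 to 1.11) in the first, 0.867 in the second, 0.824 in the third, 0.883 in the fourth, 0.943 in the fifth and 0.865 in the sixth. The first kb was thus the highest for ERRα and the lowest for mTOR.

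One bin stood apart for ERRα. At chr17:39980601-39980800 ERRα coverage was 75.4 against 52.7 in IgG, a ratio of 1.43 (1.28 to 1.61), and mTOR coverage was 139.3. Of the other 1401 bins with IgG above 10, 23 (1.64%) had an ERRα/IgG at least as high. In 200-bp bins ERRα coverage was 78.5 in the bin before and 67.9 in the bin after. IgG fell from 74.7 to 52.7 and returned to 69.3 over the same bins, and mTOR fell from 179.95 to 139.3 and rose to 227.1. In 50-bp bins ERRα coverage went from 70.3 at chr17:39980501-39980550 up to 81.4 at chr17:39980701-39980750 and down to 65.3 at chr17:39980851-39980900. IgG held 67.15, 49.6 and 64.6 in the same 3 bins, so among them ERRα was highest where IgG was lowest. No counting interval was computed for this rise in ERRα coverage, and the 200-bp bins, at 78.5, 75.4 and 67.9, do not show it. The highest 50-bp ERRα/IgG, 1.64 (1.29 to 2.08), was at chr17:39980701-39980750, while ERRα coverage was higher still, at 91.2, at chr17:39980351-39980400. The next highest 200-bp bins were at 1.05 (0.947 to 1.17) and 1.01 (0.804 to 1.27), whose intervals include 1. The lowest ERRα/IgG, 0.775 (0.687 to 0.873), was at chr17:39982401-39982600, with 51.2 against 66.1, followed by 0.797 and 0.809 at chr17:39981401-39981600 and chr17:39985001-39985200.

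The direct comparison of the ChIPs does not use IgG. mTOR exceeded ERRα by at least 3 times in 25 of the 30 bins, against 0.428% of the other bins with IgG above 10. As mTOR coverage was part of the choice of the interval, nothing is read from this contrast. The ratio ran from 1.85 to 4.87, with a median of 3.54. It was lowest at chr17:39980601-39980800, at 1.85 (1.68 to 2.03), and highest at chr17:39981601-39981800, at 4.87 (4.32 to 5.50). The position of the highest mTOR/IgG was thus also that of the highest mTOR/ERRα.

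Rn45s was then set against the other bins with IgG above 10, which are bright in the control as it is. In these 1401 bins mTOR/IgG had a median of 0.944, with 0.797 and 1.14 as the 5th and 95th percentiles and 1.82 as the 99th. The ratio of 3.19 for Rn45s was higher than in 1399 of them, and 3.38 times their median. All 30 bins of Rn45s lay above the 99th percentile, and 15 lay above the highest value elsewhere, 3.21. For ERRα/IgG the median of the other bins was 0.892, with 0.764 and 1.15 as the 5th and 95th percentiles. At 0.903, Rn45s lay in the middle, above 749 of the 1401 bins (53.5%). The comparison with these bins was part of how the interval was chosen and carries no test, and nothing is read from it.

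**Figure D3:**
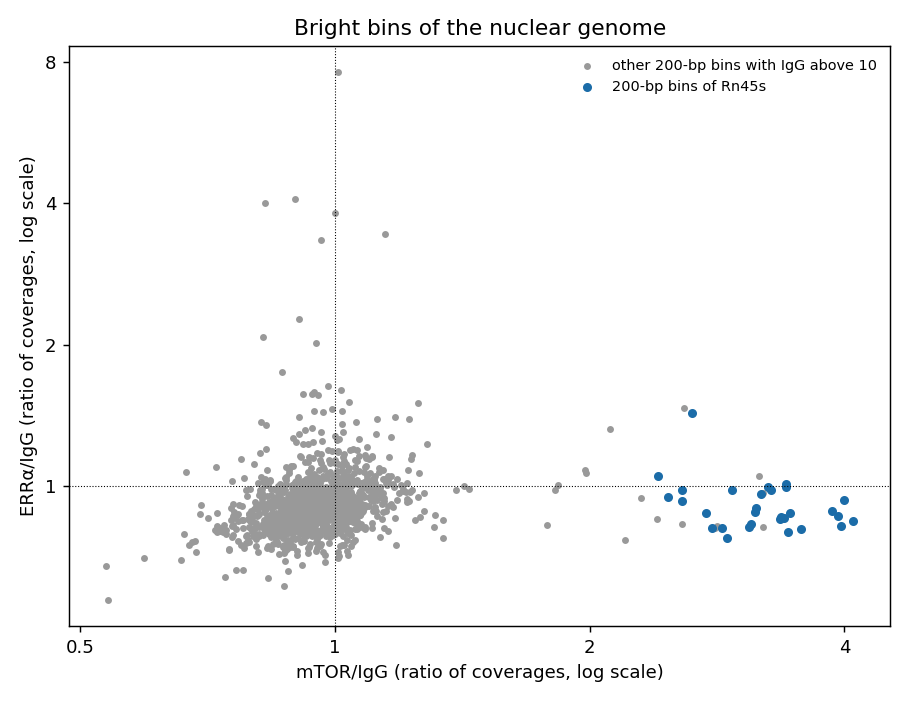
Ratio of the ERRα ChIP to IgG against the ratio of the mTOR ChIP to IgG, both on log scales, for 200-bp bins with IgG above 10; grey points are the 1401 other bins and blue points the 30 bins of Rn45s. The grey cloud centres on 0.944 and 0.892, the blue points lie to its right at 2.41 to 4.10 and at the same height, and 18 grey bins with an ERRα ratio of at least 1.5 extend the cloud upward without a gap at that value.

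Few other bright bins came near, and as the ratio was part of the choice of the interval, nothing is read from this. An mTOR/IgG of at least 2 was found in 11 of the 1401 bins, at 9 places on 8 chromosomes, each 200 to 400 bp long. The highest were 3.21 (2.73 to 3.77) at chr5:147072601-147072800, where mTOR coverage was 72.0, ERRα 18.4 and IgG 22.4, and 3.20 (2.55 to 4.06) at chr1:24620001-24620200, with 35.2, 10.6 and 10.997. The third was 3.17 (2.61 to 3.85) at chr13:97960401-97960600, with 49.6, 16.4 and 15.7. ERRα/IgG in the 11 bins was 0.770 to 1.47. These places were named after their values were seen, and what sequence lies there was not examined. None of the 18 other bright bins with ERRα/IgG of at least 1.5 had an mTOR/IgG of at least 1.5. Over all 1401 bins the 95th percentile of mTOR/IgG was 1.14. A ratio of 1.5 was thus rare in any case, and nothing is read from this count.

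Among bright blocks of at least 1 kb, none resembled Rn45s in its mTOR ratio. Adjacent bins with IgG above 10 formed 396 blocks, of which 64 were at least 1 kb long. Rn45s ranked first among the 64 by mTOR/IgG and 18th by mean IgG. As the ratio was part of the choice of the interval, nothing is read from the first rank or from the gap to the other blocks. The 63 others had an mTOR/IgG between 0.887 and 1.11, with a median of 0.946, and an ERRα/IgG between 0.817 and 1.43. The 3 nearest to Rn45s in both log2 ratios were chr11:3049601-3051600, at 1.11 for mTOR and 1.10 for ERRα, chr17:3081401-3083000, at 1.07 and 1.12, and chr11:3052201-3054400, at 1.03 and 1.02. Their distances of 1.55, 1.61 and 1.64 log2 units were almost wholly due to mTOR. The brightest block, chr2:98506201-98507600, held coverage of 29649 for mTOR, 27096 for ERRα and 31539 for IgG. Its mTOR/IgG was 0.940 and ERRα/IgG 0.859. The mitochondrial chromosome, which also occurs in many copies per cell, was not among these blocks. Its 61 bins with IgG above 10 had a median mTOR/IgG of 2.48 (5th to 95th percentile 2.00 to 8.02) and a median ERRα/IgG of 0.894, beside 3.22 and 0.879 for the bins of Rn45s. The 2 loci share the same 3 libraries, and no test was made between them.

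The mTOR excess over Rn45s was longer than any other in the nuclear genome at 2 times IgG. Stretches were formed from adjacent bins in which mTOR coverage plus 0.2 was at least 2 times IgG plus 0.2 and mTOR was above 2.01. Of 14723 such stretches, 8510 (57.8%) were a single bin, 10 were longer than 2000 bp, and the longest was that over Rn45s, at 6200 bp, whose last bin holds only the ends of tags that reach over the right edge. The next longest were 3600 bp at chr5:111847401-111851000, where mean mTOR coverage was 4.89 against 0.621 in IgG (7.87 times), and 3000 bp at chr15:76009401-76012400, with 2.70 against 0.757 (3.57 times). Required to be 2.5 times IgG, the stretch over Rn45s was 5400 bp and still the longest. Required to be 3 times, it broke up, its longest piece was 2000 bp, and the chromosome 5 stretch led with 3400 bp. Rn45s thus had a long excess at a moderate ratio, which is given as a description. Coverage was far lower in the next longest stretches, where a ratio rests on fewer tags, so the lengths are not on equal terms. As the ratio was part of the choice of the interval, nothing is read from these lengths or from the differences below. In absolute coverage, of the 50 bins of chromosomes 1 to 19, X and Y with the largest difference between mTOR and IgG, 25 lay in Rn45s. The largest difference in the copy was 210.1, and 3 bins elsewhere on these chromosomes exceeded it. The mitochondrial chromosome was left out of this ranking; its bins with IgG above 10 had mean coverage of 358.3 for mTOR and 120.3 for IgG.

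**Figure D4:**
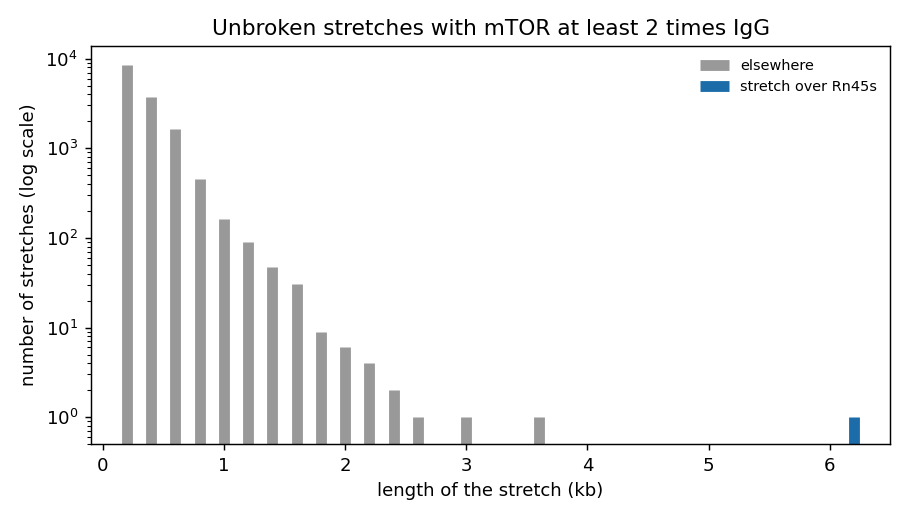
Number of unbroken stretches (log axis) of 200-bp bins with mTOR at least 2 times IgG, against their length in kb, for the nuclear genome; grey bars are stretches elsewhere and the blue bar is the 1 stretch over Rn45s. The grey bars fall from 8510 stretches of 200 bp to 1 of 3600 bp, and the Rn45s stretch stands alone at 6200 bp.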

How the data were processed

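The authors deposited 1 coverage signal track per library, and the file headers give its scaling to 10000000 tags. Build mm9 and the programs BWA 0.5.9 and MACS 1.4.1 are named, without roles, in the submitters' processing notes. Tag extension and the treatment of duplicate and multiply matching tags are not stated in the sources used. Coverage was averaged over bins of 200 and 50 bp, positions in no interval counted as 0, and control coverage was not subtracted. In sparse sequence the tracks hold long intervals of 1 value. Tag numbers were estimated as coverage divided by the coverage per tag, at the library's total. Ratios used no pseudocount except for stretches. The minimum of 2.01 for stretches was the 99.9th percentile of IgG bins above 0. Binning and intervals were tested on simulated data.

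The gene, the lists and the comparisons were chosen with earlier results of these data known. Bins named along the copy were the 3 highest and 3 lowest by each ratio to IgG and the extremes of coverage, and blocks elsewhere the 3 nearest in both log2 ratios and the brightest. No sequence is printed. Programs were Python 3.11.15, Matplotlib 3.10.9, SciPy 1.17.1, NumPy 2.4.6 and pandas 2.3.3.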

Additional observations from a re-analysis of the deposited data

How the results depend on the processing

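No paired analysis was possible because each group is 1 library. Of 61 alternative values, 48 stayed within the 95% interval of the deposited scaling or within 1.5 times a count, and 13 moved. For the percentiles this interval was not one of tag counts. It was binomial over the 1401 other bins, taken as independent although many adjoin. No ratio past 1.5 changed direction. ERRα/IgG, which is not past 1.5, crossed 1 under the first scaling below. Scaled to the median of the other bins with IgG above 10, the ratios over Rn45s were 3.38 for mTOR/IgG, 1.01 for ERRα/IgG and 3.34 for mTOR/ERRα. With the median covered bin set equal, mTOR/IgG was 3.40 and ERRα/IgG 0.962. ERRα/IgG was 0.879 as the median of 200-bp bins and 0.882 as that of 50-bp bins, and mTOR/ERRα was 3.60 in 50-bp bins. The percentile of Rn45s for ERRα/IgG, 53.5, became 56.3 with IgG above 20, 56.5 with 1 value per block and 50.4 with IgG in the range of the Rn45s bins. Bins of Rn45s with ERRα above IgG, 3 as deposited, numbered 13 with scaling to the bright bins and 10 with the median covered bin; the counts of bins were alternatives added after seeing the data. The stretch of 6200 bp was the longest under each of the 4 settings tried for it, which include the 3 scalings. Under these scalings mTOR was at least 2 times IgG in 30 of 30 bins. Each scaling sets an mTOR/IgG below 1 (0.944, 0.938 or 0.997) to 1 and so raises the ratio. The 30 of 30 could therefore not fall, and nothing is read from it. Depth limits the 50-bp bins and the flanks, where a ratio rests on few tags, and 1 library per group limits all values.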
